A study of Mus musculus with 61 samples.

Results

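The 9 genes described here, Ppara, Cpt1a, Cpt2, Acadm, Acadl, Ehhadh, Bdh1, Fabp1 and Pdk4, belong to fatty acid oxidation and ketone body metabolism. They were picked by name from the 43346 genes of a deposited RNA-seq table, in which each gene has a TPM value (a read share scaled for gene length and summing to the same total in every library) in each of 61 libraries. All 9 were among the 18655 genes that reached 1 TPM in at least 2 libraries and were tested. The libraries came from mouse fetuses and newborns: liver at E11.5, E12.5, E13.5, E14.5, E15.5, E16.5 and P0, and forebrain, midbrain and hindbrain at those stages and at E10.5, where E stands for embryonic day and P0 for the day of birth. There were 2 libraries for every tissue and stage but forebrain E10.5, which had 1. The labels give tissue and stage, and no strain, sex, genotype or treatment. RNA was taken from whole tissue, so more cells of a kind and more RNA per cell cannot be told apart in any of the values.

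The genes cover one route. In liver, long-chain fatty acids are bound in the cytosol by the fatty acid binding protein FABP1. CPT1A, at the outer mitochondrial membrane, makes the acylcarnitine that enters the mitochondrion, and CPT2, at the inner membrane, turns it back into acyl-CoA. The dehydrogenases ACADL (long-chain) and ACADM (medium-chain) carry out the opening step of mitochondrial beta-oxidation, while EHHADH is a bifunctional enzyme of peroxisomal beta-oxidation. BDH1 interconverts acetoacetate and beta-hydroxybutyrate, in liver when ketone bodies are made and in brain when they are used. PDK4 phosphorylates and thereby inhibits pyruvate dehydrogenase, which spares glucose while fat is burned. PPARA is a nuclear receptor that binds DNA together with RXRA at direct repeats of a hexamer spaced by 1 base and activates many of these genes. The newborn passes from placental glucose to fat-rich milk.

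Promoter sequences are shown for 4 of the genes, 3 that were higher in newborn than in E16.5 liver (Fabp1, Cpt1a and Pdk4) and 1 that was not called between those stages (Cpt2). Each runs 5′ to 3′ on the gene's own strand from 250 bases before to 50 bases after the RefSeq start site, on build GRCm38.p6. Capitals mark matches, on either strand, to 4 motifs: the direct repeat AGGNCANAGGNCA (DR1), its hexamer spelled AGGTCA, the start-site motif spelled TATAAA, and the GC box spelled GGGCGG. The windows are chr6:71199629-71199928 (plus strand) for Fabp1, chr19:3323051-3323350 (plus strand) for Cpt1a, chr6:5496229-5496528 (minus strand) for Pdk4 and chr4:107923540-107923839 (minus strand) for Cpt2.
Fabp1: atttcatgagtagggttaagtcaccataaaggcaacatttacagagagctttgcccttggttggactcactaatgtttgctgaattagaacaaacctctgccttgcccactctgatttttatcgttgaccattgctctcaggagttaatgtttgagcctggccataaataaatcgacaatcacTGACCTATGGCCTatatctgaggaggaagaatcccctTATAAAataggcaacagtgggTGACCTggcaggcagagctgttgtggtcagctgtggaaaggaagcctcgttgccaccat
Cpt1a: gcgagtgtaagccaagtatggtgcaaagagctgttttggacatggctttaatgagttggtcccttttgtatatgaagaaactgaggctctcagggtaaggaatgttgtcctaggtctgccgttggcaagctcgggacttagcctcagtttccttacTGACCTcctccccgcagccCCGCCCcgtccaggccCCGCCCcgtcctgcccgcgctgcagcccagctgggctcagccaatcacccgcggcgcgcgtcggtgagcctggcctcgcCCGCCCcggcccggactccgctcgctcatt
Pdk4: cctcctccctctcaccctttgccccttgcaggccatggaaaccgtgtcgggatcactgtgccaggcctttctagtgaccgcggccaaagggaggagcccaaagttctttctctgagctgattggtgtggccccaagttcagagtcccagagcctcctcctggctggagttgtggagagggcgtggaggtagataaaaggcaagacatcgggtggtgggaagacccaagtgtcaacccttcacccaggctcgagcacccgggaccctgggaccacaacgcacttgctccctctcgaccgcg
Cpt2: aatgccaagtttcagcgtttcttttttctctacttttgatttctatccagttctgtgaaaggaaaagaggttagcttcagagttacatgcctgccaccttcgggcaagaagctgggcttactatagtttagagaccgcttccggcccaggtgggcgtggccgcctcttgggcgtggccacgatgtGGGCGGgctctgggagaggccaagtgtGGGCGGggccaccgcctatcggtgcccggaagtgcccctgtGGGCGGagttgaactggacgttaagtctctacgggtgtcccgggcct

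The Fabp1 window is the odd one out among the genes. It holds the DR1 repeat, read on the opposite strand as TGACCTATGGCCT from base -67, and a TATAAA from base -30 relative to the start site. Of 32851 RefSeq promoter windows of this length, 125 (0.381%) hold a DR1 match, and Fabp1 was the only 1 of the 9 genes with one. TATAAA stands in 13.6% of all windows and, of the 9 genes, in that of Fabp1. The hexamer AGGTCA, which also lies inside a DR1 match, stands in 16.3% of all windows and in those of 3 of the 9 genes (Cpt1a, Acadm and Fabp1). The GC box stands in 35.7% of all windows and in those of 6 genes (Ppara, Cpt1a, Cpt2, Acadl, Ehhadh and Bdh1, the last in 1 of its 2 windows). The Fabp1 window has 3 CpG dinucleotides and 45.0% G or C. Those of Pdk4, Acadm, Ehhadh, Cpt2, Cpt1a, Ppara and Acadl have 12, 13, 14, 17, 22, 30 and 34 CpGs. The median over all windows is 7 CpGs. Bdh1 has a window with 7 and another with 17. The Pdk4 window holds none of the 4 motifs, which says only that these letters are not in it.

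Some features of the libraries touch the results. No read counts can be had from TPM, and sequencing depth is therefore unknown. The share of TPM held by 11 haemoglobin genes in liver was 5.81% to 6.30% at E11.5, 26.7% to 27.0% at E12.5, 34.85% to 35.9% at E13.5, 35.1% to 36.4% at E14.5, 38.7% to 38.8% at E15.5, 32.6% to 33.5% at E16.5, and 10.85% to 11.49% at P0, and where it is large every other gene's TPM is smaller by construction. All 13 hepatocyte markers (albumin and others) were above 0 in liver, and their summed TPM in the 2 libraries was 14140 and 15260 at E11.5, 92720 and 103500 at E16.5, and 189900 and 204400 at P0. In the 6 brain libraries of E12.5, Alb and Afp reached 112.4 and 206.7 TPM, against at most 8.82 and 4.5 TPM in brain at E11.5, and all 13 hepatocyte markers were above 0. The midbrain and hindbrain libraries of E15.5 go against their labels: the hindbrain gene Hoxb3 had 87.6 and 78.0 TPM in the libraries labelled midbrain and 0.15 and 0.24 TPM in those labelled hindbrain. The column headers and records of 4 brain columns (1 midbrain and 1 hindbrain at each of E16.5 and P0) disagree on the stage, and the header was followed. A small RNA gene, Mir686, is listed at 0 in 24 libraries and above 0 in 37, which splits the libraries into 2 classes. All libraries of E10.5, E13.5 and E15.5 are in the class at 0. The labels give no batch, and the source of the split was not tested. In liver, the E13.5 and E15.5 libraries are in the class at 0, so that the comparisons of E11.5, E16.5 and P0 livers lie within 1 class.

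Over the whole period, 7 of the 9 genes were called higher in liver and none lower. A gene was called when its limma adjusted p, over all 18655 genes, was below 0.05 and its log2 difference of TPM + 1 was at least 1 in size. Between P0 and E11.5 livers 8.14% of all tested genes were called higher and 38.2% lower, with a median log2 difference of -0.69 over all genes and 2.68 over the 9. After median-of-ratios scaling, which centres that median near 0, 3147 of all genes were called higher and 1561 lower, against 1519 and 7120 on TPM. The same 7 genes were called under all 16 alternative settings and without any 1 of the 4 libraries.

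Ppara, the nuclear receptor, was low in the youngest livers. It had 1.32 and 1.57 TPM at E11.5, 1.80 and 1.81 at E12.5, 1.57 and 1.72 at E13.5, 2.83 and 3.78 at E14.5, 7.32 and 7.16 at E15.5, 14.1 and 14.9 at E16.5, and 57.0 and 47.1 at P0. It was flat to E13.5, and from E14.5 on each stage lay above the one before with no overlap of libraries. At P0 it averaged 52.1 ± 7.01 TPM, against 1.45 ± 0.177 TPM at E11.5 (SD, n = 2 each), a log2 difference of 4.44 ± 0.10 (SE, limma adjusted p = 1.33e-29). In brain it stayed between 0.05 and 1.27 TPM in all 47 libraries.

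Cpt1a, the entry step of the shuttle, took another course. Its liver libraries had 14.47 and 15.8 TPM at E11.5, 8.82 and 8.91 at E12.5, 7.51 and 5.50 at E13.5, 6.54 and 6.82 at E14.5, 5.72 and 6.51 at E15.5, 7.88 and 7.71 at E16.5, and 102.7 and 102.2 at P0. The stage mean was lowest at E15.5, where the libraries overlapped those of E13.5, and was 16.8 times higher at P0. The P0 libraries stood far above every other liver library. At P0 it averaged 103 ± 0.311 TPM, against 15.1 ± 0.948 TPM at E11.5 (SD, n = 2 each), a log2 difference of 2.68 ± 0.13 (SE, limma adjusted p = 3.11e-19).

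Cpt2, the inner-membrane partner, was not called. It had 42.9 and 43.2 TPM in liver at E11.5, between 31.4 and 36.8 TPM at the stages from E12.5 to E16.5, and 24.0 and 40.7 TPM at P0. Its P0 libraries differed from each other by 1.70 times and spanned the range of all later fetal stages. The log2 difference between P0 and E11.5 was -0.45 ± 0.16 (SE, limma adjusted p = 0.0107), and it turned positive (0.70) after median-of-ratios scaling and 0.33 after quantile normalization. On TPM the RNA of Cpt1a and that of Cpt2 took different courses in liver, and the difference between these genes was not tested.

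The mitochondrial dehydrogenases were abundant from the start. Acadm had 49.6 and 52.5 TPM at E11.5, 39.2 and 37.9 at E12.5, 37.0 and 38.7 at E13.5, 48.2 and 49.2 at E14.5, 70.7 and 67.0 at E15.5, 119 and 142.8 at E16.5, and 171.2 and 167.7 at P0. From E14.5 on its stages did not overlap, and the difference between P0 and E11.5 was 1.71 ± 0.06 on the log2 scale (SE, limma adjusted p = 6.74e-23). Acadl had 71.1 and 72.5 TPM at E11.5, 52.1 and 52.5 at E12.5, 55.1 and 51.7 at E13.5, 61.6 and 68.2 at E14.5, 97.4 and 94.3 at E15.5, 105.0 and 100.7 at E16.5, and 128.6 and 125.4 at P0. Its stages from E14.5 on stood in the same order as those of Acadm, with E11.5 between E14.5 and E15.5, and the lowest mean was at E12.5 for Acadl and at E13.5 for Acadm. The range was 2.43-fold between the lowest and highest stage for Acadl and 4.48-fold for Acadm. The Acadl difference between P0 and E11.5, 0.81 ± 0.07 on the log2 scale (SE), fell short of the fold threshold on TPM, with a limma adjusted p of 2.45e-12, and passed it after median-of-ratios scaling (1.98) and quantile normalization (1.31).

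Ehhadh, the peroxisomal enzyme, had 5.44 and 6.12 TPM at E11.5, 5.85 and 6.05 at E12.5, 8.33 and 7.41 at E13.5, 8.30 and 9.0 at E14.5, 11.6 and 12.3 at E15.5, 15.8 and 19.5 at E16.5, and 67.6 and 88.8 at P0. The order of stages was the order of age, with overlap only between E11.5 and E12.5 and between E13.5 and E14.5. The P0 mean of 78.2 ± 14.96 TPM stood against 5.78 ± 0.481 TPM at E11.5 (SD, n = 2 each), a log2 difference of 3.53 ± 0.09 (SE, limma adjusted p = 1.77e-27).

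Bdh1 had 64.5 and 70.5 TPM in liver at E11.5, 64.4 and 60.2 at E12.5, 70.4 and 67.5 at E13.5, 88.6 and 99.7 at E14.5, 85.6 and 86.1 at E15.5, 122.0 and 119.1 at E16.5, and 143.9 and 158.1 at P0. It was high throughout, and its lowest and highest stage differed 2.42-fold. The log2 difference between P0 and E11.5 was 1.15 ± 0.12 (SE, limma adjusted p = 1.6e-10).

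Fabp1 was the most abundant of the 9 in liver from E12.5 on. It had 47.3 and 47.6 TPM at E11.5, 75.7 and 79.1 at E12.5, 157.6 and 183.2 at E13.5, 259.8 and 224.2 at E14.5, 420.8 and 421.6 at E15.5, 519.9 and 615.1 at E16.5, and 1352 and 1794 at P0. No neighbouring stages overlapped, and the order of stages was the order of age. The log2 difference between P0 and E11.5 was 5.01 ± 0.21 (SE, limma adjusted p = 2.4e-21).

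Pdk4 was low in every fetal liver. It had 1.76 and 1.34 TPM at E11.5, 1.02 and 0.80 at E12.5, 0.72 and 0.71 at E13.5, 0.96 and 1.09 at E14.5, 2.07 and 1.90 at E15.5, 3.45 and 3.54 at E16.5, and 71.1 and 24.7 at P0. The newborn libraries, both far above all fetal ones, differed from each other by 2.88 times, the widest gap of the 9 genes at P0. The log2 difference between P0 and E11.5 was 4.08 ± 0.21 (SE, limma adjusted p = 5.14e-19), and 3.34 without P0 replicate 1.

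**Figure D1:**
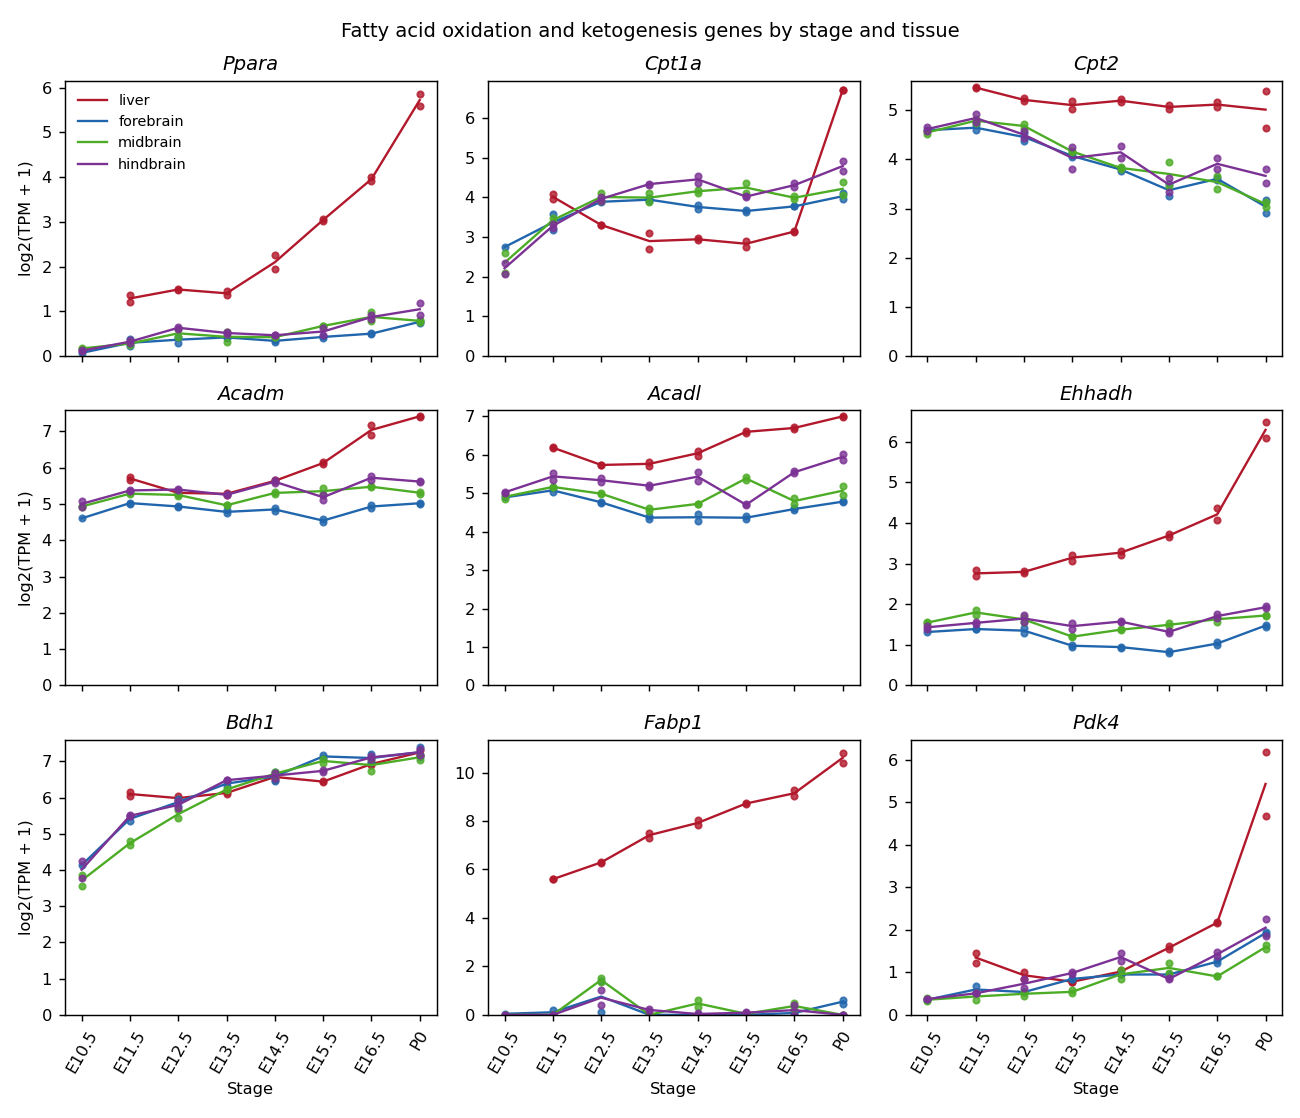
TPM of each of the 9 genes on a log2(TPM + 1) scale (vertical) against stage (horizontal), with a point per library and lines through the mean of each tissue, liver first in the legend. Liver leaves the brain regions behind at P0 in 8 panels. In the Bdh1 panel the tissues overlap at P0, at 144 to 158 TPM in liver and 131 to 168 TPM in brain. There the liver libraries lie above all those of brain at E11.5 and below all of them at E13.5 and E15.5.

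To ask how much of the change preceded the last sampled fetal stage, the period was split at E16.5. Between E16.5 and E11.5 livers, 4 genes were called higher and none lower: Ppara (log2 difference 2.67 ± 0.10), Fabp1 (3.55 ± 0.21), Ehhadh (1.45 ± 0.09) and Acadm (1.34 ± 0.06). Over all tested genes 4.93% were called higher and 34.4% lower in this step, with a median of -0.68, and 2370 higher and 1048 lower after median-of-ratios scaling against 920 and 6421 on TPM. Cpt1a was lower at E16.5 by a value short of the fold threshold, -0.87 ± 0.13 (SE, limma adjusted p = 3.75e-07), and that direction depends on the scaling, with 0.13 after median-of-ratios scaling. Pdk4 (0.82 ± 0.21), Bdh1 (0.83 ± 0.12) and Acadl (0.51 ± 0.07) were positive without being called on TPM, and all 3 passed the threshold after median-of-ratios scaling, at 1.75, 1.92 and 1.60.

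Between P0 and E16.5 livers, 5 genes were called higher and none lower, with 5.75% of all tested genes called higher, 3.65% lower and a median over all genes of 0.00. Cpt1a differed by 3.56 ± 0.13 on the log2(TPM + 1) scale (SE, limma adjusted p = 7.03e-22), and Pdk4 by 3.26 ± 0.21 (adjusted p = 2.42e-15). Their ratios of mean TPM, 13.1 for Cpt1a and 13.7 for Pdk4, stood in the other order. The others were Ehhadh with 2.08 ± 0.09 (5.37e-20), Ppara with 1.77 ± 0.10 (3.68e-17) and Fabp1 with 1.46 ± 0.21 (3.88e-07). These 5 kept their calls under all 16 alternative settings, where the lowest value of Cpt1a was 3.14 and that of Fabp1 1.05, and without any 1 of the 4 libraries. The Pdk4 value was 2.51 without P0 replicate 1 and 4.00 without P0 replicate 2.

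The other 4 genes moved little in the last step. Acadm (0.38 ± 0.06), Acadl (0.30 ± 0.07) and Bdh1 (0.32 ± 0.12) were short of the fold threshold, and with the haemoglobin genes taken out of the totals their values were -0.03, -0.10 and -0.08. Cpt2 was at -0.10 ± 0.16, between -0.47 and 0.27 when single libraries were left out. Without haemoglobin, 719 of all genes were called higher and 1771 lower in this step, against 1073 and 681 on TPM.

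The split differed widely between the genes, as a description of the fitted means. On TPM the step after E16.5 held 132.6% of the whole log2 change of Cpt1a, 79.8% of that of Pdk4 and 58.9% of that of Ehhadh. The earlier step of Cpt1a was downward on TPM and 0.13 after median-of-ratios scaling, so these shares depend on the scaling. The step after E16.5 held 39.9% for Ppara, 29.2% for Fabp1 and 21.9% for Acadm on TPM.

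**Figure D2:**
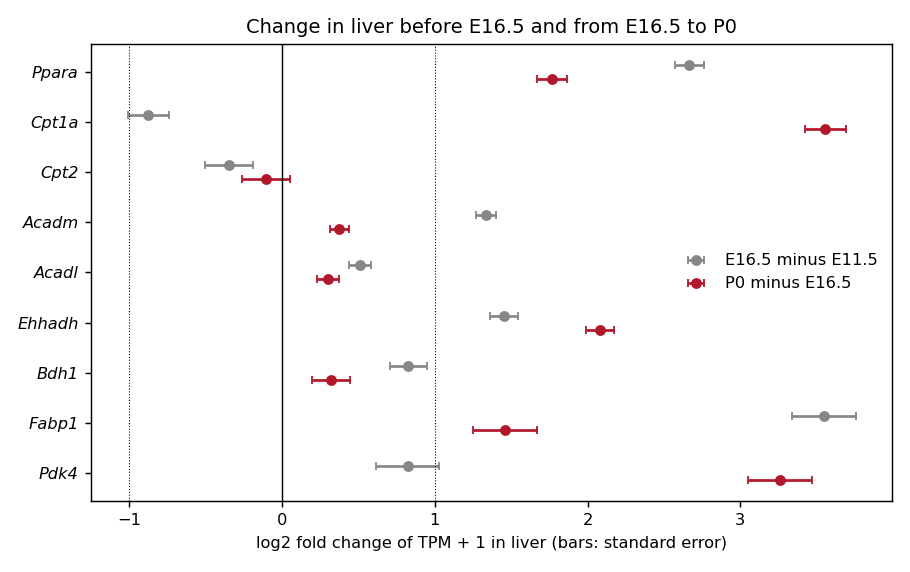
Log2 fold change of TPM + 1 in liver (horizontal, bars are standard errors) for each gene, in grey between E16.5 and E11.5 and in red between P0 and E16.5, with dotted lines at -1 and 1. Cpt1a lies at -0.87 in the first step and 3.56 in the second, whereas Fabp1 lies at 3.55 and 1.46.

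Single steps between neighbouring fetal stages mostly fell short of the fold threshold. In the 5 steps between E11.5 and E16.5, 1 call was made among the 9 genes, Fabp1 between E13.5 and E12.5 (1.13 ± 0.21, SE, limma adjusted p = 2.22e-05), which was not called with a pseudocount of 0.1. Ppara came close in the last 3 steps, with ratios of mean TPM of 2.009, 2.191 and 2.004 and log2(TPM + 1) differences of 0.69, 0.95 and 0.91 (SE 0.10 each, limma adjusted p = 4.61e-06, 1.32e-09 and 1.22e-08). Acadm did so between E16.5 and E15.5, with a ratio of 1.90 and a log2 difference of 0.91 ± 0.06 (limma adjusted p = 8.48e-13). The share of all genes called in either direction was 5.1%, 7.31%, 0.665%, 2.69% and 1.25% in these steps in order of age. At an unadjusted limma p below 0.05, 5, 3, 5, 6 and 6 of the 9 genes passed, and 65.0%, 61.4%, 29.7%, 41.5% and 25.2% of all genes did. The steps from E12.5 on each join libraries of both Mir686 classes.

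Brain and liver parted with age. On the average of the 7 shared stages, 5 of the 9 genes were called higher in liver than in the mean of the 3 brain regions and none lower, where 9.33% of all genes were called higher and 44% lower. The median log2 difference was -0.82 over all genes and 1.2 over the 9. After median-of-ratios scaling 4046 of all genes were called higher and 4162 lower, against 1740 and 8203 on TPM. Fabp1 differed most, by 7.72 ± 0.06 (SE, limma adjusted p = 4.62e-44), followed by Ehhadh (2.31 ± 0.03), Ppara (2.17 ± 0.03), Acadl (1.31 ± 0.02) and Cpt2 (1.198 ± 0.05). Acadm (0.87 ± 0.02) and Pdk4 (0.89 ± 0.06) were positive and short of the threshold on TPM. They passed it after median-of-ratios scaling, at 2.06 and 1.68. Pdk4 also passed it with a pseudocount of 0.5 (1.04).

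On TPM the number of genes called higher in liver grew with age, with 2 at E11.5, 2 at E12.5, 4 at E13.5, 5 at E14.5, 6 at E15.5, 6 at E16.5 and 8 at P0. The share of all genes called higher in liver at the same stages was 8.64%, 7.18%, 8.16%, 9.3%, 10.5%, 11% and 12.1%. The earlier counts depend on the scaling, with 7 genes called at each of E11.5, E12.5 and E13.5 after median-of-ratios scaling. Ppara shows the widening: the log2 difference was 0.99 at E11.5, 0.99 at E12.5, 0.95 at E13.5, 1.69 at E14.5, 2.49 at E15.5, 3.21 at E16.5 and 4.86 at P0. At P0 the Ppara libraries had 57.0 and 47.1 TPM in liver, against 0.68 to 1.27 TPM in the 6 brain libraries (median 0.74).

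Cpt1a changed sides. In liver it had 14.47 and 15.8 TPM at E11.5, against 7.96 to 10.9 TPM in the 6 brain libraries. At E13.5 it had 7.51 and 5.50 TPM in liver, against 13.8 to 19.3 TPM in brain, and at E14.5 and E15.5 the liver libraries were again below all brain libraries. It was called lower in liver at these 3 stages, by -1.19, -1.18 and -1.14 on the log2 scale (SE 0.11 each), where 46.9%, 46.9% and 48.7% of all genes were called lower. The direction depends on the scaling: after median-of-ratios scaling the 3 values were 0.07, 0.03 and 0.15, and after quantile normalization 0.22, 0.17 and 0.24. The E13.5 value was -1.0 and no longer called without liver replicate 2. At P0 Cpt1a had 102.7 and 102.2 TPM in liver, against 14.51 to 29.3 TPM in brain, and was called higher in liver (2.35 ± 0.11, SE, limma adjusted p = 1.16e-20), under every scaling tried.

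Bdh1 set itself apart from the other 8 by having no difference called at any stage. At P0 it had 143.9 and 158.1 TPM in liver, against 131.4 to 168.0 TPM in brain (median 143.1), and these overlapped. The log2 difference between liver and brain at P0 was 0.04 ± 0.10 (SE, limma adjusted p = 0.703) on TPM and 1.5, past the threshold, after median-of-ratios scaling, so that equal levels are a statement about TPM.

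Fabp1 was close to absent from brain. At P0 it had 1352 and 1794 TPM in liver, against 0 to 0.54 TPM in the 6 brain libraries. Over all stages the brain libraries had at most 1.87 TPM, and that maximum was reached at E12.5, where the Alb and Afp levels given above were also raised and where the 6 libraries had a median of 1.29 TPM. At the other 6 shared stages the highest brain value was 0.54 TPM. The part of such RNA in the E12.5 values was not tested.

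**Figure D3:**
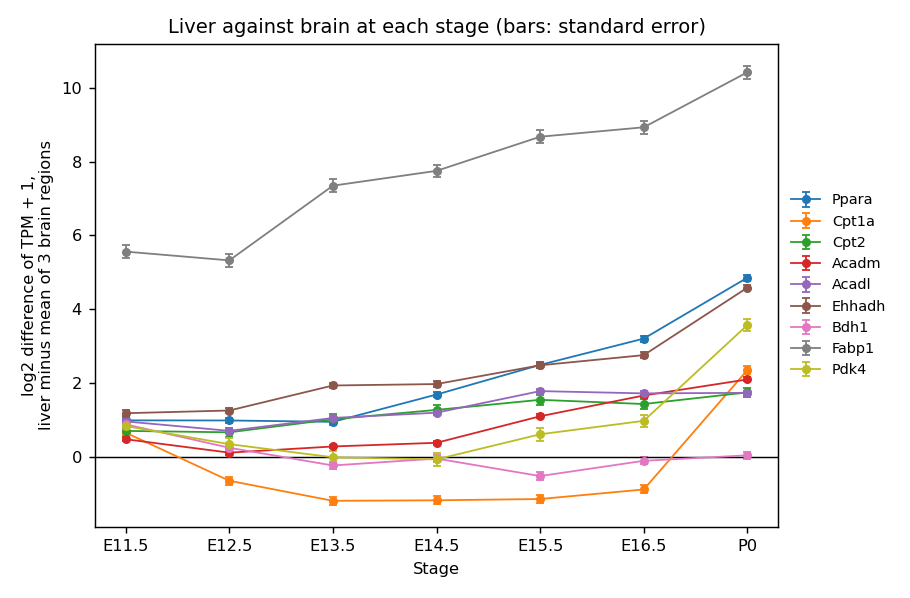
Log2 difference of TPM + 1 between liver and the mean of the 3 brain regions (vertical, bars are standard errors) at each shared stage (horizontal), with a line per gene. Fabp1 runs from 5.56 at E11.5 to 10.42 at P0, Cpt1a lies below 0 from E12.5 to E16.5 and at 2.35 at P0, and Bdh1 ends at 0.04.

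Within brain, Bdh1 and Pdk4 were called higher and Cpt2 lower in each region between P0 and E11.5, and Cpt1a higher in hindbrain. Of all genes, 16.2% to 19.2% were called higher and 11.8% to 15.1% lower in a region, as given below. Bdh1 rose: at P0 it had 137.0 and 168.0 TPM in forebrain, against 43.7 and 39.5 TPM at E11.5. In midbrain it had 143.6 and 131.4 TPM at P0, against 26.6 and 24.9 TPM at E11.5, and in hindbrain 142.5 and 159.9 TPM at P0, against 44.4 and 43.8 TPM at E11.5. The log2 differences were 1.84, 2.37 and 1.75 in forebrain, midbrain and hindbrain (SE 0.12 each). At E10.5, with no liver counterpart, Bdh1 stood at 10.7 to 17.9 TPM in the 5 brain libraries, its lowest levels anywhere in the series.

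Pdk4 rose as well, to levels far under those of newborn liver: it had 1.93 to 3.73 TPM in the 6 brain libraries of P0, against 0.28 to 0.61 TPM in those of E11.5. Its log2 differences were 1.33, 1.16 and 1.54 in forebrain, midbrain and hindbrain (SE 0.21 each), and after quantile normalization the forebrain and midbrain values were 0.89 and 0.85, short of the threshold. The midbrain value was 0.80 when the 4 columns with doubtful stages took the stage of their record. Cpt2 fell. It had 6.47 to 13.1 TPM in brain at P0, against 23.1 to 29.3 TPM at E11.5, with log2 differences of -1.61, -1.69 and -1.18 (SE 0.16 each). Cpt1a was called in hindbrain, where it had 24.1 and 29.3 TPM at P0, against 8.32 and 9.11 TPM at E11.5 (1.51 ± 0.13), and not in forebrain (0.66 ± 0.13) or midbrain (0.79 ± 0.13). The difference between the regions in this change was not tested.

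The share of all genes called higher at P0 than at E11.5 was 19.2% in forebrain, 18.3% in midbrain and 16.2% in hindbrain, and called lower 11.8%, 15.1% and 11.8%. Of the 9 genes, 2, 2 and 3 were called higher and 1 in each region lower, counts near these shares. The share of all genes called in all 3 regions was not counted. Both midbrain libraries and 1 hindbrain library of P0 are in the other Mir686 class than those of E11.5. With that class as a term of the fit the midbrain values were 2.21 for Bdh1, 1.55 for Pdk4 and -1.99 for Cpt2, and all remained called. Hindbrain P0 was the only group with libraries of both classes, so the term rests on its 2 libraries. Of these, replicate 2 is among the 4 columns of doubtful stage. The fit therefore cannot separate class from stage in midbrain. Acadm, Acadl, Ehhadh, Fabp1 and Ppara were not called in any region on log2(TPM + 1). Ppara was low, so its values depend on the pseudocount: they were 0.47, 0.51 and 0.73 in forebrain, midbrain and hindbrain, and with a pseudocount of 0.1 they were 1.31, 1.40 and 1.73 and called in all 3. With 0.5 the hindbrain value, 1.06, was called. Fabp1 in forebrain was called with a pseudocount of 0.1 (1.78), and the gene was listed at 0 in all 4 midbrain and hindbrain libraries of P0.

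The change in liver was set directly against the mean change in the 3 brain regions, between P0 and E11.5. It was called more positive in liver for 7 genes and more negative for none, where 9.32% of all genes were called more positive and 38.6% more negative. After median-of-ratios scaling these were 3683 and 3533 genes, against 1738 and 7194 on TPM. Fabp1 (4.86 ± 0.24), Ppara (3.87 ± 0.11), Ehhadh (3.40 ± 0.11), Pdk4 (2.74 ± 0.24), Cpt1a (1.70 ± 0.16), Acadm (1.62 ± 0.07) and Cpt2 (1.04 ± 0.18) were the 7. The Cpt2 call was lost without liver P0 replicate 2 (0.67), without forebrain P0 replicate 2 or hindbrain P0 replicate 1 (1.0 each, just under the threshold), and with the 4 doubtful columns at the stage of their record (0.99). For Cpt2 the change was -0.45 in liver and -1.18 to -1.69 in the brain regions. Bdh1 went the other way without passing the fold threshold (-0.84 ± 0.14, SE, limma adjusted p = 1.9e-06), and was at 0.23 after median-of-ratios scaling. Acadl, not called on TPM, was called with quantile normalization (1.25) and with median-of-ratios scaling (1.84).

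Between the 3 brain regions none of the 9 genes was called in any pair, on the average of the 7 stages. Few of all genes were called there either. Called higher were 0.96% in forebrain against midbrain, 0.252% in midbrain against hindbrain and 1.03% in forebrain against hindbrain. Called lower were 1.77%, 0.718% and 3.28% in the same order. A count of 0 among 9 genes is near these shares. At an unadjusted limma p below 0.05, 6, 5 and 6 of the 9 genes passed in these pairs, and 66.9%, 41.8% and 72.2% of all genes did. The dehydrogenases held the largest values among the 9 genes between forebrain and hindbrain, with 23.9 TPM in forebrain and 41.6 TPM in hindbrain for Acadl (-0.75 ± 0.03 on the log2 scale), and 28.3 TPM in forebrain and 43.1 TPM in hindbrain for Acadm (-0.58 ± 0.02). The E15.5 libraries, whose midbrain and hindbrain labels are in doubt, are part of these averages, and without them none of the 9 was called either.

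The neighbours of the 9 genes in the pathway were followed through 7 lists of genes that do not include them. All list genes were among the tested ones except Oxct2a and Fabp6. Between P0 and E16.5 livers, 10 of 16 genes of peroxisomal oxidation were called higher and none lower, with a median log2 difference of 1.07. Among 24 partners and targets of PPARA, 14 were called higher and 2 lower (median 1.34). Of the 20 further genes of mitochondrial oxidation 4 were called higher (median 0.56), and of 8 tested ketone body genes 3 (median 0.23). Of 10 genes around pyruvate dehydrogenase 1 was called higher (median 0.08), of 21 tested genes of fatty acid binding and uptake 5 (median 0.26), and of 13 genes of fatty acid synthesis 5 higher and 1 lower (median 0.59). Of all tested genes 5.75% were called higher and 3.65% lower in this step, with a median of 0.00, and without haemoglobin the lower calls outnumbered the higher ones, as given above. The count around pyruvate dehydrogenase lies near that share.

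Among the targets of PPARA, the cytochrome P450 genes Cyp4a14 and Cyp4a10, which hydroxylate the far end of fatty acids, showed the largest differences. Cyp4a14 had 248.9 and 498.6 TPM in P0 liver, against 0.19 and 0.30 TPM at E16.5 (log2 difference 8.15 ± 0.13), and Cyp4a10 had 102.0 and 212.4 TPM at P0, against 0.09 and 0.10 TPM at E16.5 (7.08 ± 0.14). The Cyp4a genes are close copies of each other, so reads may have been divided among them. The order of the P0 libraries differed between genes: Cyp4a14, Cyp4a10, Fabp1 and Ehhadh were higher in replicate 2, whereas Pdk4 and Ppara were higher in replicate 1. Plin2, a lipid droplet protein, was not called (0.31 ± 0.10).

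Of the ketone body genes, Oxct1, the transferase that tissues need to use ketone bodies, was lower in liver than in brain, by -2.77 ± 0.03 on the log2 scale (SE, average over stages). At P0 it had 12.05 and 11.54 TPM in liver, against 198.1 to 281.8 TPM in the 6 brain libraries.

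In peroxisomes, Acox2, an oxidase of branched chains and bile acid precursors, was already at 55.5 and 58.7 TPM at E16.5, against 0.95 and 0.91 TPM at E11.5, and had 63.6 and 75.0 TPM at P0. In mitochondria, Acadvl, the very-long-chain dehydrogenase, had 170.0 and 173.5 TPM at P0, against 85.04 and 80.7 TPM at E16.5 (1.04 ± 0.08), and Hadha, a subunit of the trifunctional protein, was not called (0.44 ± 0.06). Cpt1c, the form of the shuttle enzyme known from brain, was lower in liver than in brain by -3.39 ± 0.03.

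Around pyruvate dehydrogenase, the kinases differed. Pdk2 was the 1 gene called between P0 and E16.5, with 18.3 and 15.8 TPM at P0 and 5.61 and 5.20 TPM at E16.5 (1.49 ± 0.12). Pdk3 had 7.77 and 7.42 TPM at P0, against 28.6 and 28.9 TPM at E11.5 (-1.79 ± 0.11), and Pdk1 was lower by -1.23 ± 0.14 in that comparison. The subunit genes Pdhb (0.09 ± 0.05) and Pdha1 (0.04 ± 0.07) were not called between P0 and E16.5.

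Among genes of uptake and activation, Slc27a2, Slc27a5 and Acsl1, which join fatty acids to coenzyme A, were higher in P0 than in E16.5 liver by 1.93 ± 0.10, 2.07 ± 0.17 and 1.58 ± 0.11. Fabp7, the binding protein of neural progenitors, was the mirror image of Fabp1, lower in liver than in brain by -8.67 ± 0.05. In the synthesis list, Thrsp (2.38 ± 0.13), Elovl5 (2.28 ± 0.08) and Acacb (2.20 ± 0.16) were higher at P0 than at E16.5, while Fasn, the fatty acid synthase, was at 0.02 ± 0.17 between those stages.

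**Figure D4:**
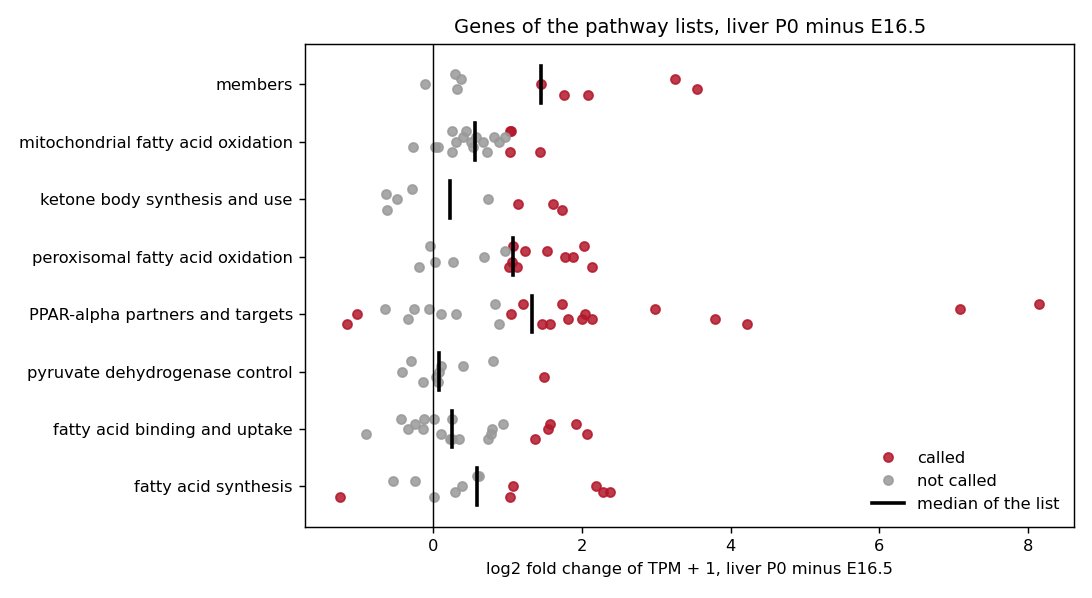
Log2 fold change of TPM + 1 in liver between P0 and E16.5 (horizontal) for the 9 genes (top row, "members") and the 7 lists of pathway genes (other rows), a point per gene, red where called, with a black bar at the median of each row. Most points lie right of 0, and the 3 farthest to the right among the PPARA targets are Cyp4a14 at 8.15, Cyp4a10 at 7.08 and Cyp4a31 at 4.23.

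Because hepatocyte markers rose with age, each gene's TPM was also set against the summed TPM of the 13 hepatocyte markers in the same library. The log2 ratios were averaged over the 2 libraries of each stage. On that ratio Ppara, Fabp1 and Pdk4 were higher at P0 than at E11.5, by 1.42, 1.29 and 1.02 on the log2 scale. The 2 P0 libraries of Pdk4 stood at 71.1 and 24.7 TPM, so its P0 ratio was lower in replicate 2 than this mean. Ehhadh was at 0.00, Cpt1a at -0.99, Acadm at -2.01, Bdh1 at -2.59, Acadl at -2.93 and Cpt2 at -4.21. Between P0 and E16.5 the same ratio was higher for Cpt1a (2.71), Pdk4 (2.57), Ehhadh (1.14), Ppara (0.83) and Fabp1 (0.46) and lower for Acadm (-0.63), Bdh1 (-0.68), Acadl (-0.71) and Cpt2 (-1.12). Albumin and the other markers themselves changed, so the ratio is a description and was not tested. Myeloid markers also moved with age in liver, with a summed TPM over 6 genes of 320.1 and 334.6 at E11.5, 4270 and 5305 at E16.5, and 7234 and 7266 at P0, and their part in the results was not tested.

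**Figure D5:**
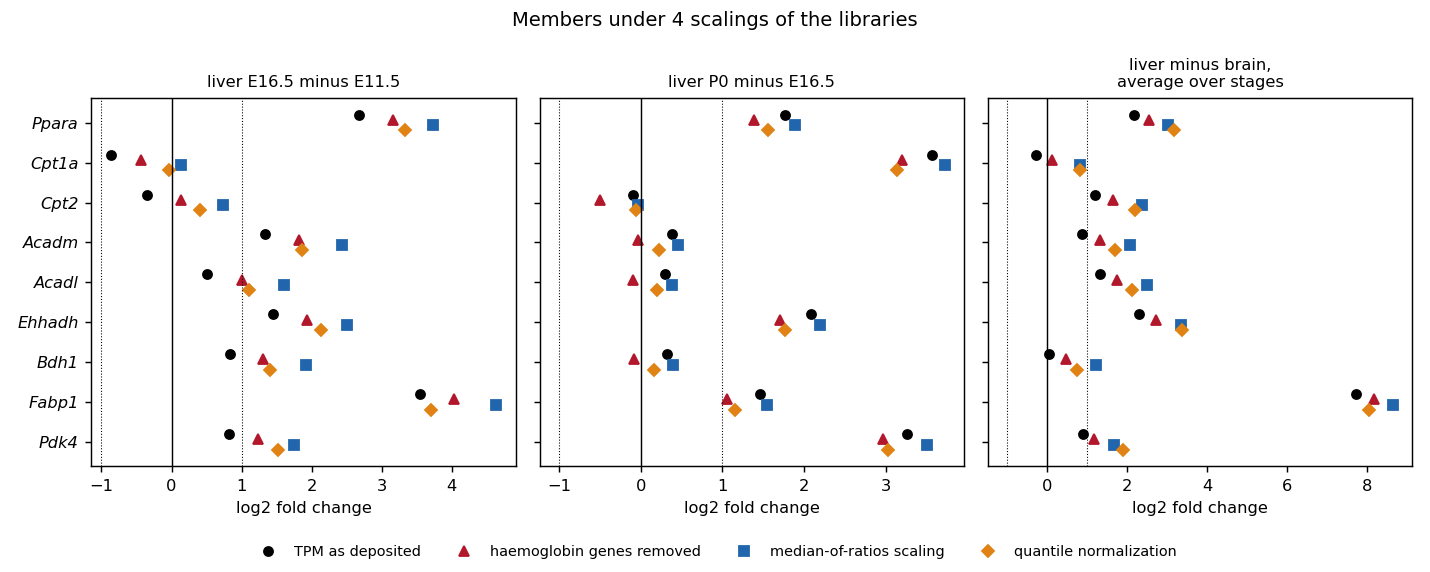
Log2 fold change of each gene (horizontal) on TPM as deposited and under 3 other scalings, in 3 comparisons, with dotted lines at -1 and 1. Median-of-ratios scaling moves the points to the right in the outer panels, Cpt1a crosses 0 in both of them, and in the middle panel the 5 called genes lie beyond 1 under every scaling.

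The genes whose liver pattern was most like each member were named by Pearson's r of log2(TPM + 1) over the 14 liver libraries, among 8926 protein-coding genes whose liver mean was 5 TPM or higher. These libraries share 7 stages and the haemoglobin dilution, so high values are common and stand as a description. For Ppara they were Acsl1 (r = 0.997) and F2 (0.996), for Ehhadh Slco1b2 (0.997) and Pon1 (0.995), and for Fabp1 Mgst1 (0.997) and Gc (0.996). Cpt1a had Arl4d (0.992) and Got1 (0.988), and Pdk4 had Vkorc1 (0.988) and Hpgd (0.988). Acadm had Cela1 (0.989) and C8a (0.988), Acadl had Eps8l2 (0.983) and Gm2a (0.982), and Bdh1 had Tm4sf4 (0.977) and Prodh2 (0.974). Cpt2, with the smallest range, had the weakest likeness, Lactb2 (0.877) and Znrd1as (0.874).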

How the data were processed

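The authors deposited 1 table of TPM values per gene and library, and these were used as deposited. The submitters' processing notes name STAR 2.4.0k, RSEM 1.2.23 and build mm10, and per the labels' protocols libraries were made with a stranded mRNA kit from 4 µg of total RNA. The annotation used for the table is not given in the sources used here. TPM keeps no counts, so depth and counting error are unknown. Totals per library were 997627 to 1000000 TPM, with 12104 to 13791 genes at 1 TPM or more in liver and 13780 to 15561 in brain libraries.

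Columns were placed by the tissue and stage in their header. Identifiers were matched to GENCODE M21 for symbols (42462 of 43346 matched), and promoters came from RefSeq (GRCm38.p6). The test was run in R 4.3.3 with limma 3.58.1, on log2(TPM + 1), for the 18655 genes (15725 protein-coding) that 2 or more libraries showed at 1 TPM or higher. For genes of low level a fold change on this scale is too small. Each of 31 tissue and stage groups had its own mean, with 30 residual degrees of freedom, a mean-variance trend and Benjamini-Hochberg adjustment over all tested genes. The procedure was tested on simulated data. The 9 genes and the pathway lists were chosen with earlier results of these data known. Genes named from the lists are up to 3 called ones with the largest change and up to 2 others with the highest mean TPM per list and comparison. A few genes beside this rule (the liver and hindbrain genes used to check labels, and Mir686) were chosen after their values were seen. The labels name replicates and do not say whether these were separate animals or pools, and p-values therefore measure only the spread between libraries, which may be technical. In the most alike pair of a group 91.9% of tested genes had different values. Figures were drawn with matplotlib 3.10.9. Alternatives covered the pseudocount, the filter on low values, the scaling, the mean-variance trend, a replicate block, the doubtful columns and libraries, the Mir686 class and each library left out. Some genes of the pathway lists are not reported by name here.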

Additional observations from a re-analysis of the deposited data

Results flagged for a closer look

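For 7 of the 9 genes the change between P0 and E11.5 differed between liver and brain, by a limma contrast of the liver change minus the mean of the 3 brain changes, where 9.32% of all genes were called more positive in liver and 38.6% more negative. The differences of the changes, on the log2 scale, were 4.86 for Fabp1, 3.87 for Ppara, 3.40 for Ehhadh, 2.74 for Pdk4, 1.70 for Cpt1a, 1.62 for Acadm and 1.04 for Cpt2. Adjusted over all tested genes, limma's p was 3.43e-19, 6.15e-26, 3.82e-25, 1.39e-12, 3.84e-12, 1.84e-20 and 3.77e-06 in the same order. For Cpt2 the liver change alone was -0.45 and the brain changes were -1.61 in forebrain, -1.69 in midbrain and -1.18 in hindbrain. On TPM the gene thus fell less in liver than in brain. The sign of its liver change depends on the scaling, with 0.70 after median-of-ratios scaling and 0.33 after quantile normalization. The Cpt2 call on the difference of changes was lost without liver P0 replicate 2 (0.67), forebrain P0 replicate 2 or hindbrain P0 replicate 1 (1.0 each). It was also lost, at 0.99, with the 4 doubtful columns at the stage of their record.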

How the results depend on the processing

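The limits that matter here are the scaling and the 2 libraries per group. Of 1395 values of the 9 genes under alternatives that leave out no single library, 1327 kept direction and side of the threshold, 32 newly passed it, 8 no longer passed and 28 changed sign. The causes were not tested, beyond what each alternative does by construction. With median-of-ratios scaling, the genes called higher in liver than in brain were 8 on average over stages and 7 at each of E11.5, E12.5 and E13.5, with 0 called lower at E13.5, E14.5 and E15.5. Among all genes 4046, 2296, 3224 and 4351 were called higher on average and at E11.5, E12.5 and E13.5. Called higher in liver were 7 between E16.5 and E11.5, 1 between E12.5 and E11.5 and 2 between E15.5 and E14.5. Counts over all genes were 4708 (P0 against E11.5), 3418 (E16.5 against E11.5), 777 (E13.5 against E12.5), 227 (E14.5 against E13.5) and 800 (E15.5 against E14.5). Cpt1a, liver minus brain, turned to 0.83 on average and to 0.24, 0.07, 0.03, 0.15 and 0.48 from E12.5 to E16.5, and its E16.5 against E11.5 value to 0.13. Cpt2 turned to 0.70 (P0 against E11.5) and 0.73 (E16.5 against E11.5) in liver, Acadl to 0.05 and Ehhadh to 0.03 in midbrain, and the Bdh1 difference of changes to 0.23. With quantile normalization, 8, 6 and 7 genes were called higher in liver than in brain at E11.5, E12.5 and E13.5 and 0 lower at E13.5, E14.5 and E15.5, 7 between E16.5 and E11.5 livers, and 1 each in forebrain and midbrain between P0 and E11.5. All-gene counts were 4822 (P0 against E11.5), 3192 (E16.5 against E11.5), 685 (E13.5 against E12.5) and 188 (E14.5 against E13.5). Cpt1a, liver minus brain, turned to 0.83 on average and to 0.39, 0.22, 0.17, 0.24 and 0.51 from E12.5 to E16.5, Cpt2 in liver to 0.33 and 0.40, and Ehhadh in forebrain to -0.34. With the haemoglobin genes removed, 4 genes at E11.5 and 5 at E12.5 were called higher in liver than in brain, 0 lower at E13.5, E14.5 and E15.5, 1 higher between E12.5 and E11.5 livers and 1 between E15.5 and E14.5, with 4539 genes called in all between E16.5 and E11.5. Cpt1a, liver minus brain on average, turned to 0.11, Cpt2 to 0.13 between E16.5 and E11.5, and Acadm, Acadl and Bdh1 to -0.03, -0.10 and -0.08 between P0 and E16.5.

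With a pseudocount of 0.1, 4 genes were called higher in liver at E11.5, 0 between E13.5 and E12.5, 1 between E15.5 and E14.5 and 4 in forebrain, among them Ppara and Fabp1. All-gene counts were 2760 (P0 against E16.5), 2223, 3520, 280, 925 and 405 in the 5 fetal liver steps in order of age, and 1077, 467 and 1709 for forebrain against midbrain, midbrain against hindbrain and forebrain against hindbrain. With 0.5, 4 genes were called higher in liver at E11.5 and 1 between E15.5 and E14.5. With the Mir686 class as a term, 2349 genes were called between E13.5 and E12.5, 331 between E14.5 and E13.5, and 1 of the 9 higher between E16.5 and E15.5. That term rests on the 2 hindbrain libraries of P0, as given above, and cannot separate class from stage in liver. Midbrain against hindbrain gave 358 genes with the Mir686-positive libraries alone, 328 without the E15.5 midbrain and hindbrain libraries and 315 without these and the E12.5 brain libraries, against 181. These settings on the Mir686 class and on both doubtful sets were chosen after seeing the data. With the 4 doubtful columns at the stage of their record 1 gene was called higher in midbrain. Without them Acadm and Acadl in midbrain were -0.01 and 0.01.

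Leaving out single libraries, the genes called lower in liver at E13.5 ranged from 0 to 1 (0 without liver E13.5 replicate 2), those called higher between E15.5 and E14.5 from 0 to 1 (1 without E14.5 replicate 2) and between E16.5 and E15.5 from 0 to 1 (1 without E16.5 replicate 1). All genes called between E14.5 and E13.5 ranged from 98 to 196. Bdh1, liver minus brain at P0, ranged from -0.03 to 0.11, Cpt2 between P0 and E16.5 livers from -0.47 to 0.27, the Cpt2 difference of changes from 0.67 to 1.41, and in midbrain Acadm from -0.01 to 0.06 and Acadl from -0.21 to 0.01.

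Replicate numbers gave no steady pairing of the libraries. Over the 21 pairs of liver stages the correlation of same-numbered deviations ran from -0.201 to 0.199 and passed 0.1 in 2. Over the 325 pairs of all groups it ran from -0.634 to 0.32 and passed 0.1 in 27. Strongly negative values stand for groups whose libraries of unlike number deviated alike. A block on the number cannot take these up, so shared deviations between libraries were not excluded. With a replicate block 7 genes were called higher between P0 and E11.5 livers and 5 between P0 and E16.5, with 8637 and 1757 genes called in all, and no call of the 9 genes changed.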
